A study of Rattus norvegicus with 6 samples.

Results

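The genes examined here are those of the motile cilium, chosen by name from the thyroid RNA-seq counts of non-pregnant (NP) rats and rats in late pregnancy (LP, day 18, the day of the vaginal plug being day 1). A gene was a member if its symbol started with Dnah, Dnai, Rsph, Tekt or Cfap, or was one of 14 further names of axoneme, dynein assembly or ciliation genes. Of the 15388 genes in the count tables, 39 met this rule. Of the 14 further names, 11 were among the rows, and Foxj1, Ccdc40 and Spag17 were not analysed here. The rule itself uses names and no measured value. Both groups were adult female Sprague-Dawley rats with no other treatment, the pregnant rats having been mated by overnight caging with a male, and 3 samples of whole thyroid were deposited for each group. Thyroid markers were abundant in every sample, with thyroglobulin (Tg) taking between 22.9% and 24.5% of the reads, and the parathyroid hormone gene Pth and the C cell hormone gene Calca had at least 11334 and 21383 reads in each sample, so the tissue held neighbouring endocrine cells as well. In such whole tissue, fewer cells of a type and less RNA per cell cannot be told apart.

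The motile cilium is a whip of microtubules built on a central pair ringed by doublets. Outer and inner arm dyneins on the doublets slide them past each other, radial spokes carry signals from the central pair to the dyneins, and nexin links with their dynein regulatory complex turn sliding into bending. Multiciliated cells line the airway, including the trachea against which the thyroid lies, while the thyroid follicular cell carries a primary cilium, a sensory antenna built by the same transport machinery.

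Many ciliary genes are switched on through the X-box, a palindromic promoter site bound by transcription factors of the RFX family. Promoter sequences (250 bases before to 50 bases after the start of the gene, RefSeq, build GRCr8) were found for 32 of the 39 members. They were searched for the letters GTNNC followed, after a spacer of 3 or 4 bases, by their reverse complement GNNAC. The pattern reads the same on both strands, and matches with the shorter and longer spacer may overlap. The letters were chosen after a few of these promoters had been read, and those promoters were kept in the count. The share among the members is therefore not independent of that choice. At least one match was present in 17 of the 32 promoters, or 53.1%, and in 2486 of 18999 promoters of protein-coding genes, or 13.1%. A match is a description of the sequence and not evidence of binding. The promoter of Rsph9 is shown whole because Rsph9 was the 1 member past the test described below, with the match in capitals starting 4 bases before the first base of the gene.
Rsph9, chr9:22337431-22337730, plus strand: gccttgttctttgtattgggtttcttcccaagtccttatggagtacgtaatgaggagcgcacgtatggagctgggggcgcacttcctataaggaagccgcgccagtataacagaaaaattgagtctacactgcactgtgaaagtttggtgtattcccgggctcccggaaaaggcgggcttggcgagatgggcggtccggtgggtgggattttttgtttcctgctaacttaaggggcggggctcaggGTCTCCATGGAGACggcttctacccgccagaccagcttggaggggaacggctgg
The next windows, with 20 bases on either side of the match, show the site in members of other roles, none of which passed the test: an inner arm dynein (Dnah2), a dynein docking gene (Ccdc114), a central pair gene (Hydin), a tektin (Tekt4) and the Cfap family (Cfap70, Cfap20).
Dnah2, chr10:54766038-54766091, minus strand: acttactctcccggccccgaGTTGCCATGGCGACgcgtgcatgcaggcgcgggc
Ccdc114, chr1:105531201-105531254, plus strand: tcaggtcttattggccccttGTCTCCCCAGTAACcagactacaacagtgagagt
Hydin, chr19:55146432-55146485, plus strand: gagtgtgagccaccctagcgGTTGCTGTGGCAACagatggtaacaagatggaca
Tekt4, chr10:14992215-14992267, plus strand: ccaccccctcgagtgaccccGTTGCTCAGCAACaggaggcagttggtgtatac
Cfap70, chr15:3901580-3901633, plus strand: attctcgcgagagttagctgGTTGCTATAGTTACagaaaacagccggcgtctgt
Cfap20, chr19:9614800-9614852, plus strand: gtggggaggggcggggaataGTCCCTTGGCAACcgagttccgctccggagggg
The RFX factors examined here were Rfx1, Rfx2, Rfx3 and Rfx4, of which Rfx1 had the most reads. Rfx2 had 22, 26 and 29 NP reads and 37, 33 and 39 LP reads, a log2 fold change of 0.37 that did not pass edgeR's test (adjusted p = 0.3). Rfx3 had 7, 8 and 6 NP reads and 6, 7 and 14 LP reads.

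The counts summed to between 2752144 and 3449857 reads per sample, so that 3 reads, taken as the smallest detectable level, stood for 0.87 to 1.09 CPM (read counts scaled to the effective size of each library), a floor set by counting error alone. Between replicates 2 and 3 the counts lay within sampling noise in NP (chi-square 1.02 per degree of freedom, p = 0.111) and in LP (0.995, p = 0.667), while replicate 1 differed from them with values of 3.70 to 4.11. For some genes replicate 1 of both groups stood apart in the same way. The skeletal actin gene Acta1 had 0 reads in replicate 1 of NP and of LP and 144 to 186 in the other samples, and the water channel gene Aqp5 had 17 and 42 reads against 162 to 199. Replicates 2 and 3 of each group were therefore counted as 1 sample, which leaves n = 2 for each group in every mean ± SD. The counts were tested with edgeR's quasi-likelihood test on 4 libraries, replicates 2 and 3 of each group being summed, with TMM normalization (a scaling that sets aside the most changed genes) and Benjamini-Hochberg adjustment over 12326 genes. The p-values then measure the spread between these libraries, which may be technical.

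Reads on motile cilia genes were few. The 39 members together had 678, 689 and 719 NP reads and 813, 863 and 846 LP reads. The radial spoke genes Rsph9 and Rsph10b, the Cfap gene Cfap20 and the dynein heavy chain Dnah1 held 56.3% of the 4608 reads over the 6 samples. Another 10 members had fewer than 10 reads over all 6 samples together, namely Armc4, Cfap43, Cfap44, Cfap57, Drc1, Lrrc6, Rsph6a, Spag6, Tekt2 and Tekt3. A read was seen in every sample for 27 members, and 12 were at 0 in at least 1 sample. The filter on low counts, edgeR's default, kept 21 members, and the 18 others, each with at most 42 reads in all, were too shallow for the test. These counts are not levels per length, so they give no order of levels between genes.

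**Figure D1:**
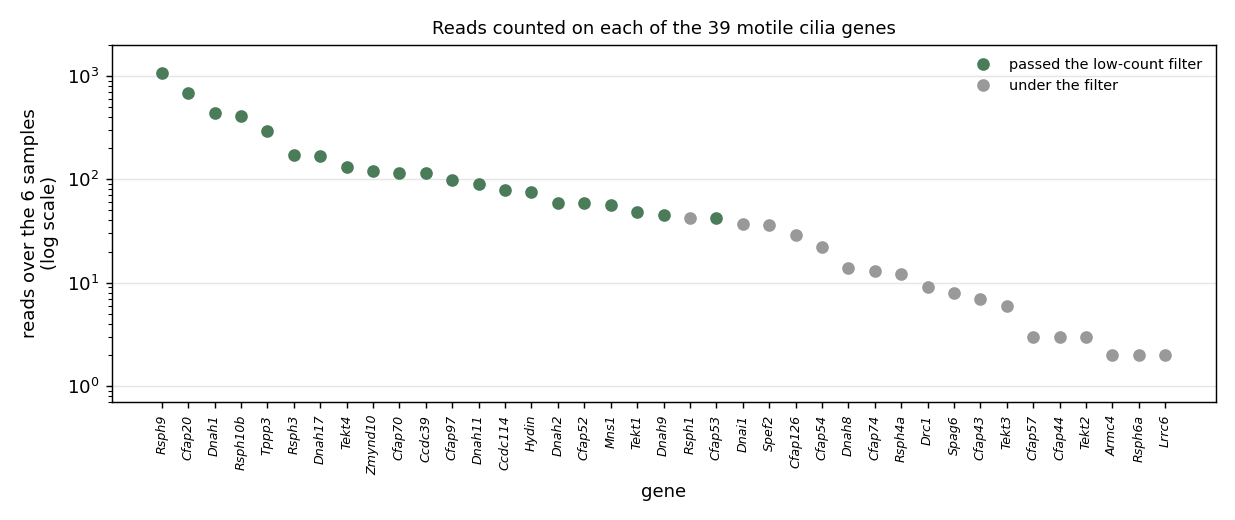
Reads counted on each of the 39 motile cilia genes over the 6 samples (log scale), in order of the total, with the 21 genes that passed the low-count filter in green and the 18 under it in grey. Rsph9 is at the top with 1064 reads, and 10 genes have fewer than 10 reads.

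The comparison of LP with NP asks whether the motile cilia genes of the maternal thyroid are altered in late pregnancy. Of the 21 members that passed the filter, 1 was past the test at an adjusted p-value below 0.05, Rsph9, which rose, and 0 fell. Over all genes tested, 20.6% passed, with 12.3% higher and 8.36% lower in LP. That was 1511 genes higher and 1030 lower, and with library totals alone in place of TMM it was 1297 higher and 1647 lower. At an unadjusted p-value below 0.05, 4 of the 21 were higher and 1 was lower, where 32.2% of all genes tested lay below that value in either direction. With DESeq2 in place of edgeR 0 members passed, where 9.48% of all genes tested did, and 1 was below an unadjusted p-value of 0.05, where 16.1% of all genes were. The replicate number as a block, a pairing that the labels do not name, gave 3 members higher and 0 lower by edgeR in 4 libraries. Over all genes tested 16% were higher with that block. No member met the criteria of the study, a fold above 2 at an adjusted p-value below 0.05, which 5.43% of all genes tested did. The median log2 fold change of the 21 was 0.055, beside -0.011 over all genes tested, and without the filter the 39 members had a median of 0.0003 beside -0.012 over all genes.

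The precision differed from gene to gene. For 12 of the 21 members the 95% interval of the fold change excluded a 2-fold change in either direction, and these were Ccdc39, Cfap20, Cfap97, Dnah1, Dnah17, Dnah2, Rsph10b, Rsph3, Rsph9, Tekt4, Tppp3 and Zmynd10. For the other 9 the interval reached past a 2-fold change in at least 1 direction. In CPM, all 3 LP samples lay above all 3 NP samples for 5 of the 21 members (Cfap70, Dnah11, Rsph9, Tppp3 and Zmynd10), against 20.6% of all genes tested, and below them for 3 (Ccdc114, Cfap20 and Tekt4), against 18.9%. These shares of the members, on so few genes, lie close to those over all genes.

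**Figure D2:**
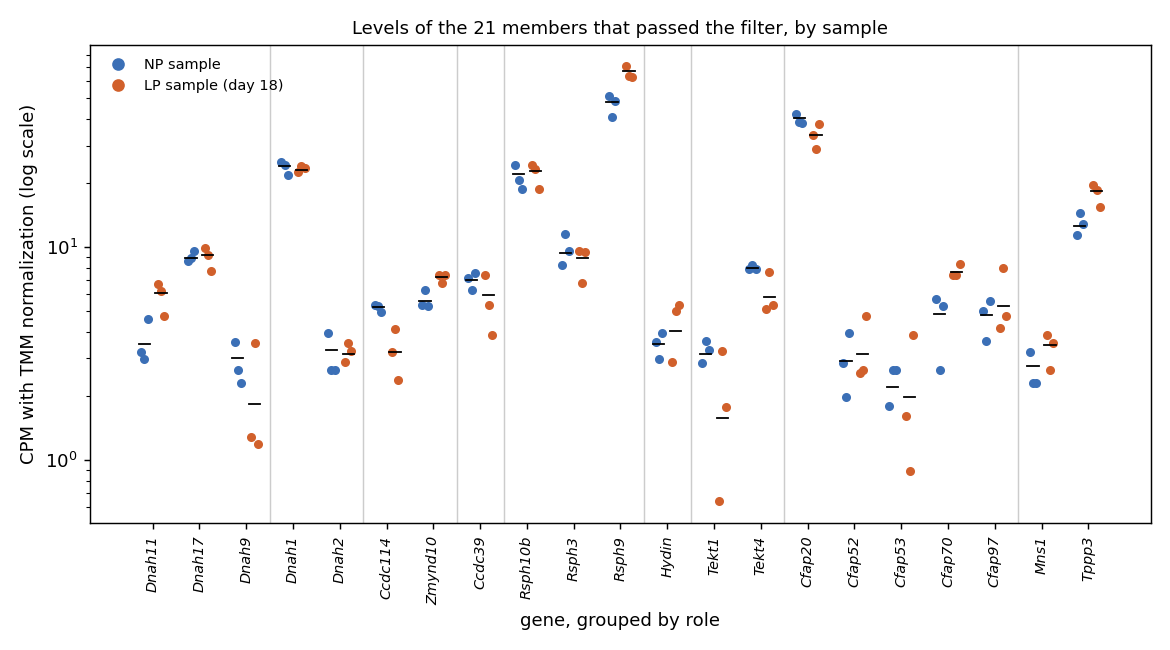
Level of the 21 motile cilia genes that passed the filter, in CPM with TMM normalization (log scale), for each NP sample (blue) and LP sample (orange), grouped by role. Black lines are group means with replicates 2 and 3 averaged first (n = 2), and the LP points of Rsph9 lie above its NP points while those of most genes overlap.

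**Figure D3:**
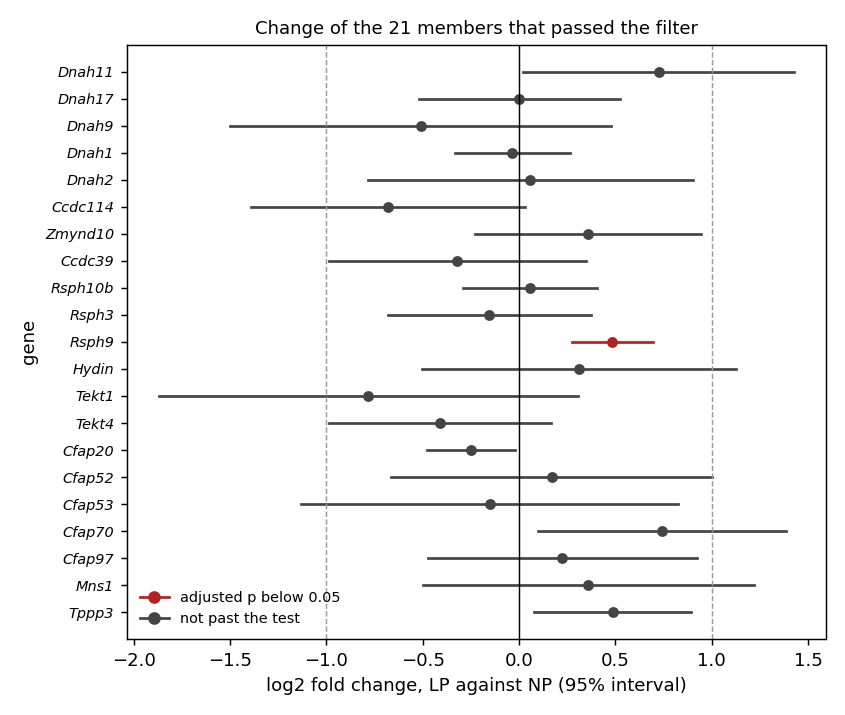
Log2 fold change of LP against NP with its 95% interval for the 21 genes that passed the filter, from edgeR's quasi-likelihood test, with dashed lines at a 2-fold change. Rsph9, in red, is the 1 gene past the adjusted threshold, and the intervals of 12 genes lie between the dashed lines.

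The radial spoke genes held the 1 member past edgeR's test. Rsph9 (ENSRNOT00000068747) encodes a protein of the spoke head, the part that faces the central pair. It had 144, 124 and 148 NP reads and 220, 215 and 213 LP reads. Every LP sample thus lay above every NP sample. The level was 48.2 ± 4.7 CPM (SD, n = 2) in NP and 67.0 ± 5.2 CPM in LP, a fold change of 1.399 (95% interval 1.21 to 1.62, adjusted p = 0.00378 by edgeR's quasi-likelihood test). DESeq2 gave a log2 fold change of 0.49 and an adjusted p-value of 0.091, which ends the call. In the annotation of build GRCr8 no other gene overlapped Rsph9.

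None of the other spoke genes passed the test. Rsph10b had 68, 63 and 57 NP reads and 76, 79 and 63 LP reads, a fold change of 1.04 with an interval of 0.817 to 1.32, which leaves room for a rise near that of Rsph9 but not for a 2-fold change. Rsph3, a protein of the spoke stalk, had 23, 35 and 29 NP reads and 30, 23 and 32 LP reads, a fold change of 0.898 (interval 0.623 to 1.29). Rsph1, another spoke head gene and a marker of ciliated airway cells, was under the filter with 4, 7 and 9 NP reads and 7, 5 and 10 LP reads. Rsph4a, of the spoke head as well, had 0, 2 and 1 reads in NP and 3 in each LP sample, and Rsph6a, its relative of the sperm tail, had 0 reads in NP and 0, 1 and 1 in LP. The levels of these low genes cannot be ordered at this depth.

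Outer arm dyneins drive the beat frequency of the cilium. Dnah11, an outer arm heavy chain, had 9, 9 and 14 NP reads and 21, 21 and 16 LP reads. All its LP samples lay above the NP samples, at 6.11 ± 0.90 CPM against 3.51 ± 0.40 CPM (SD, n = 2), and the log2 fold change of 0.72 (standard error, SE, 0.32) did not pass the test (adjusted p = 0.143 by edgeR). Dnah11 overlaps Cdca7l, whose log2 fold change was 0.20 (adjusted p = 0.436 by edgeR). Dnah9, the outer arm heavy chain of the distal airway cilium, had 10, 8 and 7 NP reads and 4, 12 and 4 LP reads, or 3.58, 2.64 and 2.31 CPM in NP against 1.28, 3.55 and 1.19 CPM in LP, and the groups overlapped. Dnah17, the heavy chain known from the sperm tail, had 24, 27 and 29 NP reads and 31, 31 and 26 LP reads, a fold change of 1.00 (interval 0.697 to 1.44). The intermediate chain Dnai1 was under the filter with 5, 5 and 7 NP reads and 5, 7 and 8 LP reads, and the testis-biased heavy chain Dnah8 with 1, 2 and 0 in NP and 7, 3 and 1 in LP.

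Inner arm dyneins shape the bend of the cilium. Dnah1, a heavy chain of the inner arms, was among the better measured members, with 70, 74 and 66 NP reads and 70, 81 and 79 LP reads. Its fold change was 0.976 with an interval of 0.795 to 1.20, and the groups overlapped. Dnah2 had 11, 8 and 8 NP reads and 9, 12 and 11 LP reads, with a fold change of 1.04 (interval 0.581 to 1.87). Its mean level was slightly lower in LP, at 3.15 ± 0.36 CPM against 3.29 ± 0.92 CPM, because replicates 2 and 3 weigh more in the fit than in the mean.

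Genes that dock or assemble the dynein arms went in different directions, none past the test. Ccdc114, of the complex that docks outer arms on the doublet, had 15, 16 and 15 NP reads and 10, 14 and 8 LP reads. Its LP samples all lay below the NP samples, and the log2 fold change was -0.68 (SE 0.32, adjusted p = 0.176 by edgeR). Zmynd10, a cytoplasmic factor for the assembly of dynein arms, had 15, 19 and 16 NP reads and 23, 23 and 25 LP reads, with all LP samples above NP in CPM and a log2 fold change of 0.36 (SE 0.27, adjusted p = 0.404 by edgeR). Its partner Lrrc6 had 2 reads in NP replicate 1 and 0 in every other sample, and the docking gene Armc4 had 1 read in NP replicate 1 and 1 in LP replicate 2. Ccdc39, part of the molecular ruler that sets the axonemal repeat, had 20, 19 and 23 NP reads and 23, 18 and 13 LP reads, with overlapping groups and a fold change of 0.800 (interval 0.504 to 1.27). Drc1, a subunit of the dynein regulatory complex, had 1 to 3 reads in each sample.

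Central pair genes were close to the limit of detection. Hydin, a giant protein of a central pair projection, had 10, 9 and 12 NP reads and 9, 17 and 18 LP reads, a fold change of 1.24 (interval 0.706 to 2.18). Spef2 had 5, 5 and 4 NP reads and 6, 9 and 7 LP reads, and Spag6 had 0 to 3 reads in each sample. Tektins, filament proteins inside the doublets, were fitted lower in LP without passing the test. Tekt4 had 22, 25 and 24 NP reads and 16, 26 and 18 LP reads, or 7.98 ± 0.15 CPM against 5.82 ± 0.97 CPM (SD, n = 2), and its interval of 0.504 to 1.12 excluded a 2-fold change. Tekt1, expressed in multiciliated cells, had 8, 11 and 10 NP reads and 2, 11 and 6 LP reads, with a log2 fold change of -0.78 (SE 0.49, adjusted p = 0.316 by edgeR). Tekt2 had 0, 0 and 2 NP reads and 0, 0 and 1 LP reads, and Tekt3 0 to 3 reads in each sample.

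The Cfap genes, named for proteins associated with cilia and flagella, include both some of the best counted members and some of the least counted. Cfap20, a protein of the inner junction between the tubules of a doublet that is also found in primary cilia, had 118, 118 and 116 NP reads and 105, 98 and 128 LP reads. In CPM its LP samples lay below the NP samples, at 33.72, 28.96 and 37.95 CPM against 42.22, 38.89 and 38.26 CPM, with only a narrow gap. The means were 33.6 ± 0.19 CPM and 40.4 ± 2.6 CPM (SD, n = 2). The LP SD is this small because replicates 2 and 3, which differed, were averaged first. Its fold change of 0.841 (interval 0.717 to 0.986) did not pass the adjusted test (adjusted p = 0.122 by edgeR). With library totals alone in place of TMM it passed, with an adjusted p-value of 0.0472 by edgeR. Cfap70, which has a role in outer arm function, had 16, 8 and 16 NP reads and 23, 25 and 28 LP reads. Its groups did not overlap, with 4.84 ± 1.3 CPM in NP and 7.62 ± 0.32 CPM in LP. The log2 fold change of 0.74 (SE 0.29) did not pass the test (adjusted p = 0.102 by edgeR). With the replicate number as a block, a pairing that the labels do not name, Cfap70 passed (adjusted p = 0.0334 by edgeR in 4 libraries). Cfap52, Cfap53 and Cfap97 had overlapping groups and fold changes of 1.13, 0.899 and 1.17. Of the Cfap genes under the filter, Cfap126 had 1, 3 and 4 NP reads and 6, 8 and 7 LP reads, while Cfap54 had 3, 3 and 8 against 2, 2 and 4 and Cfap74 had 2, 3 and 5 against 0, 1 and 2. Cfap43, Cfap44 and Cfap57 had at most 3 reads in any sample.

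Tppp3 promotes the polymerization of tubulin and is found in ciliated cells and also in connective tissue. It had 32, 44 and 39 NP reads and 61, 63 and 52 LP reads, so that every LP sample lay above every NP sample. The level was 12.6 ± 1.6 CPM (SD, n = 2) in NP and 18.3 ± 1.8 CPM in LP. Its fold change of 1.399 (interval 1.05 to 1.86) equalled that of Rsph9 with a wider interval, and it did not pass the test (adjusted p = 0.0921 by edgeR). With the replicate number as a block, a pairing that the labels do not name, Tppp3 passed (adjusted p = 0.047 by edgeR in 4 libraries). Mns1, a filament protein inside the doublets, had 9, 7 and 7 NP reads and 12, 9 and 12 LP reads, a fold change of 1.28 (interval 0.707 to 2.33).

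Summed over the 39 members, the level was 243, 227 and 237 CPM in NP and 261, 255 and 251 CPM in LP. The means were 237 ± 7.4 CPM and 257 ± 5.8 CPM (SD, n = 2), a ratio of 1.08. All LP samples lay above the NP samples. Without Rsph9 the ratio was 1.00. The 18 members under the filter had 27, 40 and 46 NP reads and 42, 46 and 49 LP reads. By role, the ratio was 1.24 for the radial spoke genes, and 1.03 for those without Rsph9. It was 1.42 for Tppp3 with Mns1, 1.26 for the central pair, 1.16 for the outer arm dyneins, 0.959 for the inner arm dyneins, 0.930 for docking and assembly and for the 11 Cfap genes, 0.844 for Ccdc39 with Drc1 and 0.674 for the tektins. No test was made of these sums, since the genes were chosen with results of these data known.

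**Figure D4:**
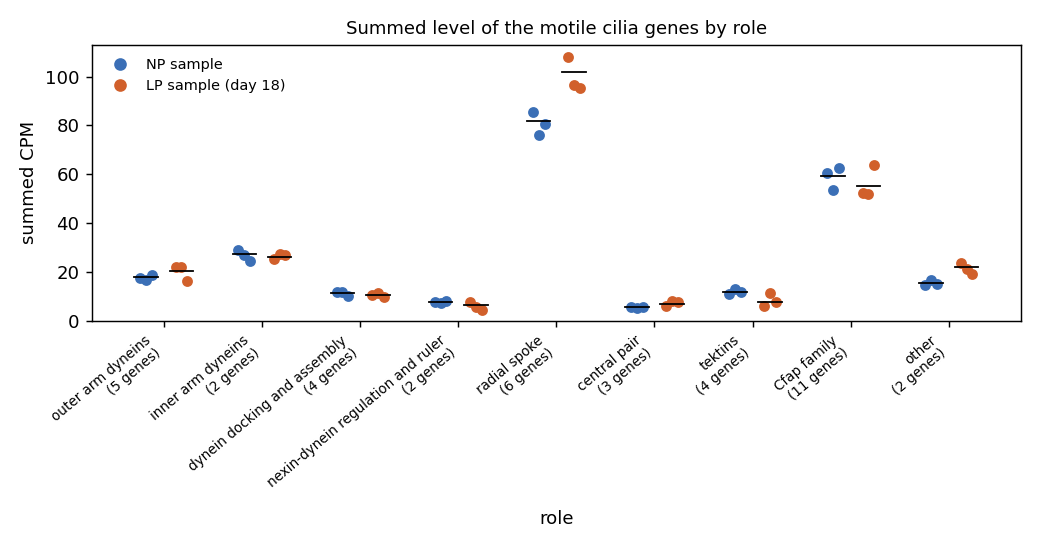
Summed level of the 39 motile cilia genes by role, in CPM with TMM normalization, for each NP sample (blue) and LP sample (orange), with black lines at the group means (n = 2, replicates 2 and 3 averaged first). The LP points lie above the NP points for the radial spoke genes, the central pair and Tppp3 with Mns1, and the groups overlap for the remaining roles. Without Rsph9 the radial spoke sums overlap as well, at 31.66 to 35.27 CPM in NP and 32.31 to 37.25 CPM in LP. Apart from the radial spoke, the sums of the roles are at most 63.7 CPM in each sample.

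Other genes of the motile cilium that the rule did not name were also examined. Of 100 listed, 69 were in the count tables and 35 passed the filter. Of the 35, 2 rose and 2 fell in edgeR's quasi-likelihood test, where 12.3% of all genes tested rose and 8.36% fell. The median log2 fold change of the 35 was -0.10. Mlf1, found in motile cilia but also in skeletal muscle, had 0, 3 and 0 NP reads and 144, 153 and 134 LP reads. It moved beside the skeletal muscle markers, which took 0.004% to 0.0096% of the reads in NP and 0.671% to 0.704% in LP, with 20 of 22 tested higher in LP, a median log2 fold change of 7.49 over the 22, and 0 lower with edgeR, with DESeq2 or at an unadjusted p-value below 0.05. The part of muscle RNA in the Mlf1 change was not tested. Iqub, a radial spoke gene, had 4, 3 and 4 NP reads and 13, 16 and 13 LP reads, a log2 fold change of 1.75 (SE 0.42, adjusted p = 0.0119 by edgeR). The genes that fell were the centrin Cetn2, with a log2 fold change of -0.37, and Dpcd, with -0.38. With DESeq2 the call of Mlf1 held, while those of Iqub, Cetn2 and Dpcd did not (adjusted p = 0.274, 0.464 and 0.557). Without Mlf1 the summed level of the other 68 genes was lower in LP, with a ratio of 0.896.

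None of the listed regulators of multiciliation that could be tested passed. Of 20 listed, 13 were in the tables and 8 were tested, namely Rfx1, Rfx2, Rfx3, E2f4, E2f5, Tfdp1, Cep63 and Plk4. Of these 0 were higher and 0 lower with edgeR, with DESeq2, or at an unadjusted p-value below 0.05 with either. Mcidas and Ccno were not analysed here, and Gmnc, Myb, Rfx4, Ccdc67 and Ccdc78 were under the filter. Gmnc, which acts at the start of the programme, had 2 reads in NP replicate 1 and 1 in LP replicate 2. Ccdc78 had 0, 0 and 1 NP reads and 6, 3 and 3 LP reads, and without the filter it did not pass (adjusted p = 0.0704 by edgeR). The groups of Myb, Rfx4 and Ccdc67 overlapped. The transport genes that motile and primary cilia share (intraflagellar transport, BBSome, kinesin-2 and transition zone) were better measured. Of 57 tested, 0 were higher with edgeR, with DESeq2 or at an unadjusted p-value below 0.05. By edgeR's quasi-likelihood test 3 were lower, and 14 were lower at an unadjusted p-value below 0.05. Over all genes tested 12.3% were called higher and 8.36% lower, and 32.2% lay below the unadjusted value in either direction. DESeq2 gave 2 of the 57 as lower at an unadjusted p-value below 0.05, where 16.1% of all genes were below it in either direction. The median log2 fold change was -0.17, beside -0.011 over all genes tested. The intraflagellar transport gene Ift20 fell, with 158, 183 and 157 NP reads against 121, 132 and 128 LP reads, and its log2 fold change was -0.54 (SE 0.089, adjusted p = 0.00105 by edgeR). Arl3, a small GTPase that releases ciliary cargo, fell by 0.41 and Ift57 by 0.39 on the log2 scale. DESeq2 called 0 of the 3, and without LP replicate 1 the genes called lower over these cilium lists went from 5 to 2, and without LP replicate 3 to 3. The genes called higher over them went from 2 to 4 without NP replicate 1 and to 1 without LP replicate 1.

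Some markers of airway epithelium were higher in LP. The secretory genes Scgb3a1, Bpifa1 and Scgb1a1, the detoxifying enzyme gene Cyp2f4 and the squamous keratin gene Krt13 rose, 5 of 15 tested. Over all genes tested 12.3% rose. Of the 15, 0 were lower with edgeR, with DESeq2 or at an unadjusted p-value below 0.05, and the median log2 fold change was 0.37. The keratin genes Krt5, Krt14, Krt15 and Krt4 did not pass, with log2 fold changes of -0.080, 0.45, 0.18 and 0.37. Sftpd, the marker of this list with the most reads, was at -0.14 and did not pass either. Scgb3a1 had 2, 2 and 4 NP reads and 28, 26 and 34 LP reads, Bpifa1 4, 3 and 6 against 21, 32 and 24, and Scgb1a1 1, 6 and 8 against 20, 16 and 15. These counts are low as well. With DESeq2 Scgb3a1 and Bpifa1 passed and the other 3 did not, when genes averaging under 50 reads were left out 1 airway marker was higher, and without NP replicate 1 or without LP replicate 1 the count of 5 became 3. Muc5b had 3 reads in NP and 5 in LP over the group, and Scgb3a2 had 3 and 2. The list summed to between 184 and 261 CPM in NP and between 242 and 298 CPM in LP, groups that overlap through replicate 1, which had the lowest sum in each group (184 and 242 CPM). Whether airway cells had a part in the levels of the motile cilia genes was not tested. Of 3 testis-biased genes tested, 0 passed in either direction with edgeR or DESeq2, and 1 was lower at an unadjusted p-value below 0.05 with edgeR. Hspa1l of that list, which has close relatives among the heat shock genes and was under the filter, had 2, 1 and 2 NP reads and 7, 12 and 23 LP reads, and passed edgeR's test without the filter (log2 fold change 2.79, adjusted p = 0.0027).

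**Figure D5:**
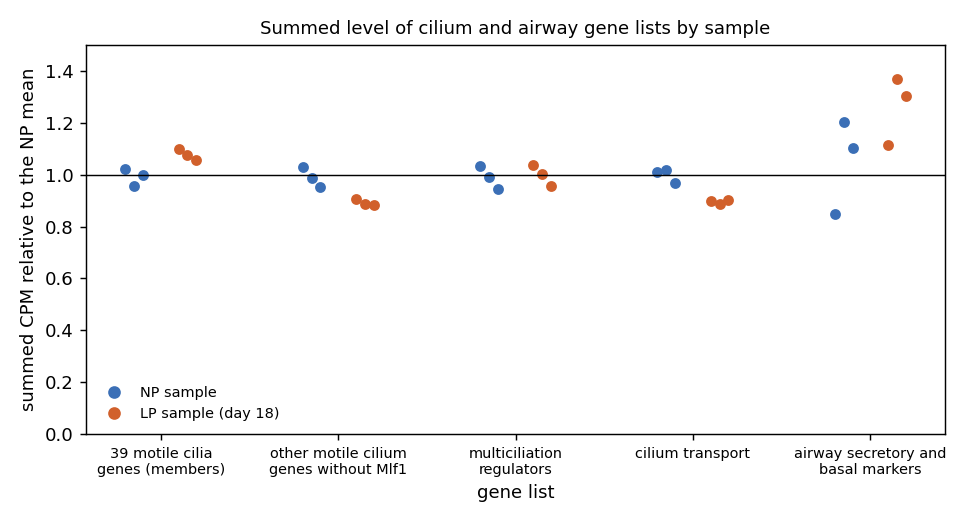
Summed CPM of each gene list by sample, relative to the mean of NP for that list, for NP samples (blue) and LP samples (orange). The 39 motile cilia genes lie slightly above 1 in LP, cilium transport genes and the other motile cilium genes without Mlf1 slightly below it, and the airway markers higher with overlapping groups.

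Some members share their place in the genome with other genes. In the RefSeq annotation of build GRCr8, 8 of the 39 members overlapped another protein-coding gene and 21 overlapped no annotated gene. The library kit does not mark strand, and how reads in a shared stretch were assigned was not examined. The overlaps are of whole gene spans in GRCr8, while the authors mapped the reads to rn5. Mns1 overlaps Tex9, with 49, 49 and 50 NP reads and 30, 41 and 41 LP reads, and Rsph1 overlaps Slc37a1, with 29, 31 and 25 NP reads and 43, 50 and 62 LP reads. The partners of Ccdc39, Cfap97 and Dnah17, namely Ttc14, Snx25 and Pgs1, had log2 fold changes of 0.077, -0.0030 and 0.0084.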

How the data were processed

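Thyroid RNA was sequenced by the authors from NP and LP rats, 3 samples each (TruSeq RNA kit, HiSeq). The authors mapped reads to rn5 with TopHat 1.4.0, counted them with HTSeq-count on gene models of Ensembl release 81, and deposited raw read counts per gene, without normalization. The tests were run in R 4.3.3, using edgeR 4.0.16 (quasi-likelihood test, TMM, default low-count filter) and, as an alternative, DESeq2 1.42.0. Replicates 2 and 3 of each group, within sampling noise by a chi-square test (genes with 10 reads or more in the pair), were summed. Standard errors were derived from the F statistic, and intervals are 95%. CPM values used TMM over the 6 samples, and members under the filter are given as reads.

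The members and gene lists were chosen with earlier results of these data known. Named genes were every member that passed the filter, the member with the most reads in each role, and in each other list at most 3 genes in each direction by adjusted p-value, and the defining markers of a cell type. Other members, overlap partners, genes that show how replicate 1 stood apart, RFX genes, Cyp2f4, Gmnc, Hspa1l and any further gene were named after their values were seen. The listed thyroid, C cell and parathyroid markers gave 3 higher and 3 lower of 11, 1 and 1 of 5, and 0 and 1 of 4 (Pth). In parathyroid markers DESeq2 also called 0 higher, and 0 were higher at an unadjusted p-value below 0.05. Alternatives were other filters, scalings, tests, a replicate block and leaving out each replicate. On simulated counts of 12277 genes in this comparison, edgeR recovered 81.6% of log2 changes of 1 and 99% of changes of 2, and called 9 of 12080 unchanged genes. The changed genes were drawn from all genes tested, and every gene was simulated with the same spread between libraries. These shares therefore do not describe the members, many of which had few reads. Samples were not tied to named litters or batches in the labels.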

Additional observations from a re-analysis of the deposited data

How the results depend on the processing

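The 21 members tested kept their side of the threshold and, where called, their direction in 290 combinations of member and setting and not in 7. Rsph9 ranged from 0.40 to 0.56 (log2) and lost its call with DESeq2 and when the fold change was tested against 2. Members higher in LP numbered 0 with DESeq2, with that fold test or with the study's criteria. Lower members numbered 1 (Cfap20, -0.318) with library totals alone. All genes past the test, 1511 higher and 1030 lower, numbered 833 and 336 with DESeq2, 357 and 21 with the fold test, and 606 and 63 with the study's criteria, and 1647 lower with library totals alone. Cilium lists, 2 higher and 5 lower, gave 1 higher with the stricter filter, 1 and 0 with DESeq2 and with the fold test, 9 lower with the 6 libraries as deposited and 13 lower with library totals alone. Airway markers, 5 higher, gave 1 with the stricter filter, and 2 with DESeq2 and with the fold test. Leaving out each replicate, members numbered 1 higher and 0 lower throughout, all genes 1227 to 1534 higher and 702 to 1019 lower, cilium lists 1 to 4 higher and 2 to 5 lower, airway markers 3 to 5 higher and 0 to 1 lower, and muscle markers 19 to 20 higher. The summed ratio of 1.08 became 1.03 with library totals alone, 1.00 without Rsph9, 1.16 over the members under the filter, and 1.07 to 1.11 with a replicate left out. The cause of these shifts was not tested.

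With the replicate number as a block, 3 members were higher (Rsph9, Cfap70 with an adjusted p-value of 0.0334 and Tppp3 with 0.047 by edgeR in 4 libraries, and 0.0238 and 0.0244 in 6), where 16% and 17.5% of all genes tested were higher in 4 and 6 libraries, 1666 and 1727 genes were lower, and cilium lists gave 12 and 13 lower. The labels name no shared litter or day. The deviations of the 2 replicate 1 samples from their groups had a correlation of 0.459 across genes. Between NP and LP, chi-square per degree of freedom was 13.13 for replicate 1 with replicate 1 and 12.53 to 12.67 among replicates 2 and 3. For replicate 1 of one group with replicate 2 or 3 of the other it was larger, at 15.05 to 16.45. Whether the numbers pair the samples was not tested, and there are only 2 pairs. The block lowered the coefficient of variation from 0.0781 to 0.0163. Depth limits the 18 members under the filter, for which no difference could be shown or excluded.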
